A study of Mus musculus with 6 samples.

Results

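The genes examined here encode the MEF2 transcription factors Mef2a, Mef2c and Mef2d and the class IIa histone deacetylases Hdac4, Hdac5, Hdac7 and Hdac9. H3K27ac, the acetylation of lysine 27 on histone H3 that marks active promoters and enhancers, was mapped by ChIP-seq in whole quadriceps of wild type C57BL/6 mice (C57BL/6J in the methods of the study) in 2 groups. Sedentary mice were housed without a wheel, and detrained mice ran voluntarily on wheels for 4 weeks and then rested without a wheel for 72 hours. Mice of both groups were 8 weeks of age at the start. Each group had 2 H3K27ac libraries, each from a single muscle of 1 animal, and 1 input library, and the labels name the strain of the inputs C57BL/7 and C57BL/8. The sedentary libraries are called C2 and C3 and the detrained libraries Ex1 and Ex2, as in the tables. Members were all peaks whose nearest annotated gene was one of these 7 genes. They comprised 82 of 46988 peaks in the sedentary list and 61 of 40721 in the detrained list. Hdac5 was the nearest gene of no peak in either list, and its locus is described separately below from the peaks that lie over it.

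MEF2 proteins are MADS-box factors that bind an A/T-rich DNA element in the promoters and enhancers of muscle genes, and they act with myogenic bHLH factors. Class IIa deacetylases bind MEF2 through their amino-terminal part and repress its targets. When calcium- or energy-sensing kinases phosphorylate these deacetylases, 14-3-3 proteins bind them, they leave the nucleus and MEF2 is released. Muscle activity engages this switch, and Hdac9 is itself known as a MEF2 target.

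The H3K27ac libraries held 20805019 to 22400894 tags. The sedentary input held 10812470 tags and the detrained input 21298438, and the part of this difference in the number of peaks called was not tested. Because the mark was measured in whole muscle, more marked cells and more signal per cell cannot be told apart. Of 7 fibre marker genes, 6 had peaks in each list, with summed tags of 5192 and 6604 per 10000000 in the sedentary libraries and 6959 and 6637 in the detrained ones, and Tnnt3 was the nearest gene of none. The fibre total was higher in both detrained libraries, but not without Myh4 (75.1 and 83.5 against 814 and 788), where it was 5117 and 6520 against 6145 and 5849. The defining adipocyte markers Adipoq and Plin1 had no peak. The 5 endothelial markers summed to 2226 and 2615 in sedentary and 2899 and 2290 in detrained muscle. The 3 fibroblast markers summed to 1623 and 1519 in sedentary and 2115 and 2035 in detrained muscle, so that this list was higher in both detrained libraries. Smaller totals were also higher there for immune markers (168 and 133 against 229 and 196, with peaks at 3 of 5 genes in the sedentary and 4 in the detrained list and none at Cd68), satellite cell markers (179 and 173 against 227 and 246) and smooth muscle markers (120 and 115 against 172 and 176). The immune totals cover the 3 genes with peaks in both lists, without Ptprc, which had peaks only in the detrained list. Among markers from outside the tissue, Alb had no peak, Apoa1 summed to 357 to 396 over the 4 libraries, and the neuronal pair Snap25 and Rbfox3 to 336 to 398.

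The MEF2 consensus (CTA, 4 bases that are each A or T, then TAG, which reads the same on both strands) was searched for in the promoters that RefSeq gives for the members, from 250 bases before to 50 bases after each start site in GRCm38.p6. It was found in 104 of 21262 protein-coding promoter windows (0.489%), and in 2 of the 13 windows of the members. These were the Mef2a promoter and the Hdac5 promoter, both on the minus strand, shown here with the match in capitals.

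Mef2a promoter, chr7:67372809-67373108: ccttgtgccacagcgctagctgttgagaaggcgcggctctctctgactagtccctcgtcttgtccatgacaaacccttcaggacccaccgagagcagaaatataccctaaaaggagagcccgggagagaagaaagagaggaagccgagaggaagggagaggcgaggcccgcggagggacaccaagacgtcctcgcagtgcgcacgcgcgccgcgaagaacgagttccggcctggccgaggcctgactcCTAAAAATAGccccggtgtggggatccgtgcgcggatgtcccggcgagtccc

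Hdac5 promoter, chr11:102230123-102230422: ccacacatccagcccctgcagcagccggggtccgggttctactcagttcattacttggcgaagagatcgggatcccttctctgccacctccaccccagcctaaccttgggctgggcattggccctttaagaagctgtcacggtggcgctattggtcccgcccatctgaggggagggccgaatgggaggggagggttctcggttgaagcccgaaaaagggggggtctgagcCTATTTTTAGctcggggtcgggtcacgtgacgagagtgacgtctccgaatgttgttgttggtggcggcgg

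In the Mef2a window the match occupied positions 249 to 258, counted from the 5′ end, and its first base lay 2 bases before the annotated start site, which it overlapped. In the Hdac5 window it occupied positions 231 to 240 and its first base lay 20 bases before the start site. Read on the transcribed orientation the 2 matches were CTAAAAATAG in Mef2a and CTATTTTTAG in Hdac5, which are the same site on opposite strands. A match is a description of the sequence and does not show that a factor was bound.

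Across whole called peaks of the members, 14 distinct matches to the MEF2 consensus were found, and 9 of them lay in peaks of both lists. Mef2c held 6 of the 14, Mef2d, Hdac4 and Hdac9 held 2 each, and Mef2a and Hdac7 held 1 each. The matches present in both lists outside the Mef2a promoter are shown on the plus strand with the match in capitals, because they lie in regions called in both groups.

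Hdac4 site, chr1:92270672-92270681: tttccagaacCTAAAAATAGctgctgttta
Hdac9 site, chr12:34527846-34527855: gaaggtagatCTATAAATAGttccgcttgt
Mef2c site, chr13:83524034-83524043: caccgtaaaaCTAAAATTAGcaaaatgtca
Mef2c site, chr13:83565995-83566004: agggctccaaCTATTTATAGaactgagtaa
Mef2c site, chr13:83603975-83603984: tggcagttgcCTAAAAATAGaaaactgctt
Mef2c site, chr13:83603997-83604006: aactgcttaaCTAAAAATAGcctggctctc
Mef2d site, chr3:88140793-88140802: tggggaagcaCTAAAAATAGaggccacaag
Mef2d site, chr3:88150222-88150231: actgcccaggCTAAAAATAGcccctgccca

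The last pair of Mef2c matches lay 22 bases apart, start to start, in the same intronic peak. In windows of 1000 bp centred on each peak, the consensus was present in 4 of 82 sedentary member peaks (4.88%) against 3.51% of all sedentary peaks, and in 7 of 61 detrained member peaks (11.5%) against 3.40% of all detrained peaks. With C or T allowed as the first base and A or G as the last, which includes the strict matches, the shares were 23.2% against 15.8% in the sedentary list and 29.5% against 15.2% in the detrained list. The E-box CAGCTG was present in 41.5% of the sedentary member windows against 47.6% of all windows, and the AP-1 element TGANTCA in 28.0% against 28.4%. The forkhead element TGTTTAC was present in 21.95% against 13.9% and the nuclear receptor element AAGGTCA in 23.2% against 19.7%, counting both strands. The member windows had a median GC content of 44.6% in the sedentary list and 44.3% in the detrained list, against 47.8% and 48.3% over all peaks, and the part of base composition in these shares was not tested.

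Of the 13 RefSeq promoter windows of the members, 11 touched a peak in each list. Over all protein-coding windows the share was 51.8% in the sedentary list and 51.5% in the detrained list. The unmarked windows were the farthest upstream start of Hdac7 and the farthest upstream start of Hdac9. The Hdac9 windows are shown because the gene has a pair of alternative starts 388 kb apart, of which only the internal one touched a peak in either list. Capitals mark the E-box CAGCTG and the AP-1 element TGANTCA, which were found in 15.6% and 6.99% of all windows.

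Hdac9 internal promoter (touched a peak), chr12:34528840-34529139: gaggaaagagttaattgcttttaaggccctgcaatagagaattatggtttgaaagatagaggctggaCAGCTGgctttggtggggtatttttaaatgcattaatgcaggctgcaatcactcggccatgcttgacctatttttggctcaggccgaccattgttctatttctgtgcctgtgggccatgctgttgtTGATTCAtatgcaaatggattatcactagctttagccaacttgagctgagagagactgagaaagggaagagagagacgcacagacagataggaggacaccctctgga

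Hdac9 upstream promoter (touched no peak), chr12:34917046-34917345: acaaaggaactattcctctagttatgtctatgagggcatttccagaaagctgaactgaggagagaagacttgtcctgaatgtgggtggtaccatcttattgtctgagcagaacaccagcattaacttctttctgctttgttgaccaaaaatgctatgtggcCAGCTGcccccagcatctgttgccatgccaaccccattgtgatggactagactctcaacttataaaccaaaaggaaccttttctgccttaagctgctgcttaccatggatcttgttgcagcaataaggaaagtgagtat

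The internal Hdac9 window held 3 CpG dinucleotides and the upstream window 0, against a median of 13 over all windows. The Mef2d and Hdac4 windows held 24 and 32.

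Peaks of the members were mostly distal. Introns held 55 of the 82 sedentary peaks (67.1%), against 50.8% of all peaks in that list, and intergenic sequence held 22 (26.8%, against 30.7%). Only 3 sedentary (3.66%, against 11.2% of all) and 5 detrained member peaks (8.20%, against 12.6%) were annotated as promoter. In the sedentary list 39 of the 82 (47.6%) lay 50 kb or farther from the nearest start site, against 24.1% of all peaks, and in the detrained list 29 of the 61 (47.5%), against 23.4%. Every member peak was at least 3.68-fold over input in the sedentary list, with a median of 6.33-fold, and at least 3.52-fold in the detrained list, with a median of 5.09-fold. Levels are given below as tags per 10000000 aligned tags of a library, and densities as tags per kb of called peak per 10000000.

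**Figure D1:**
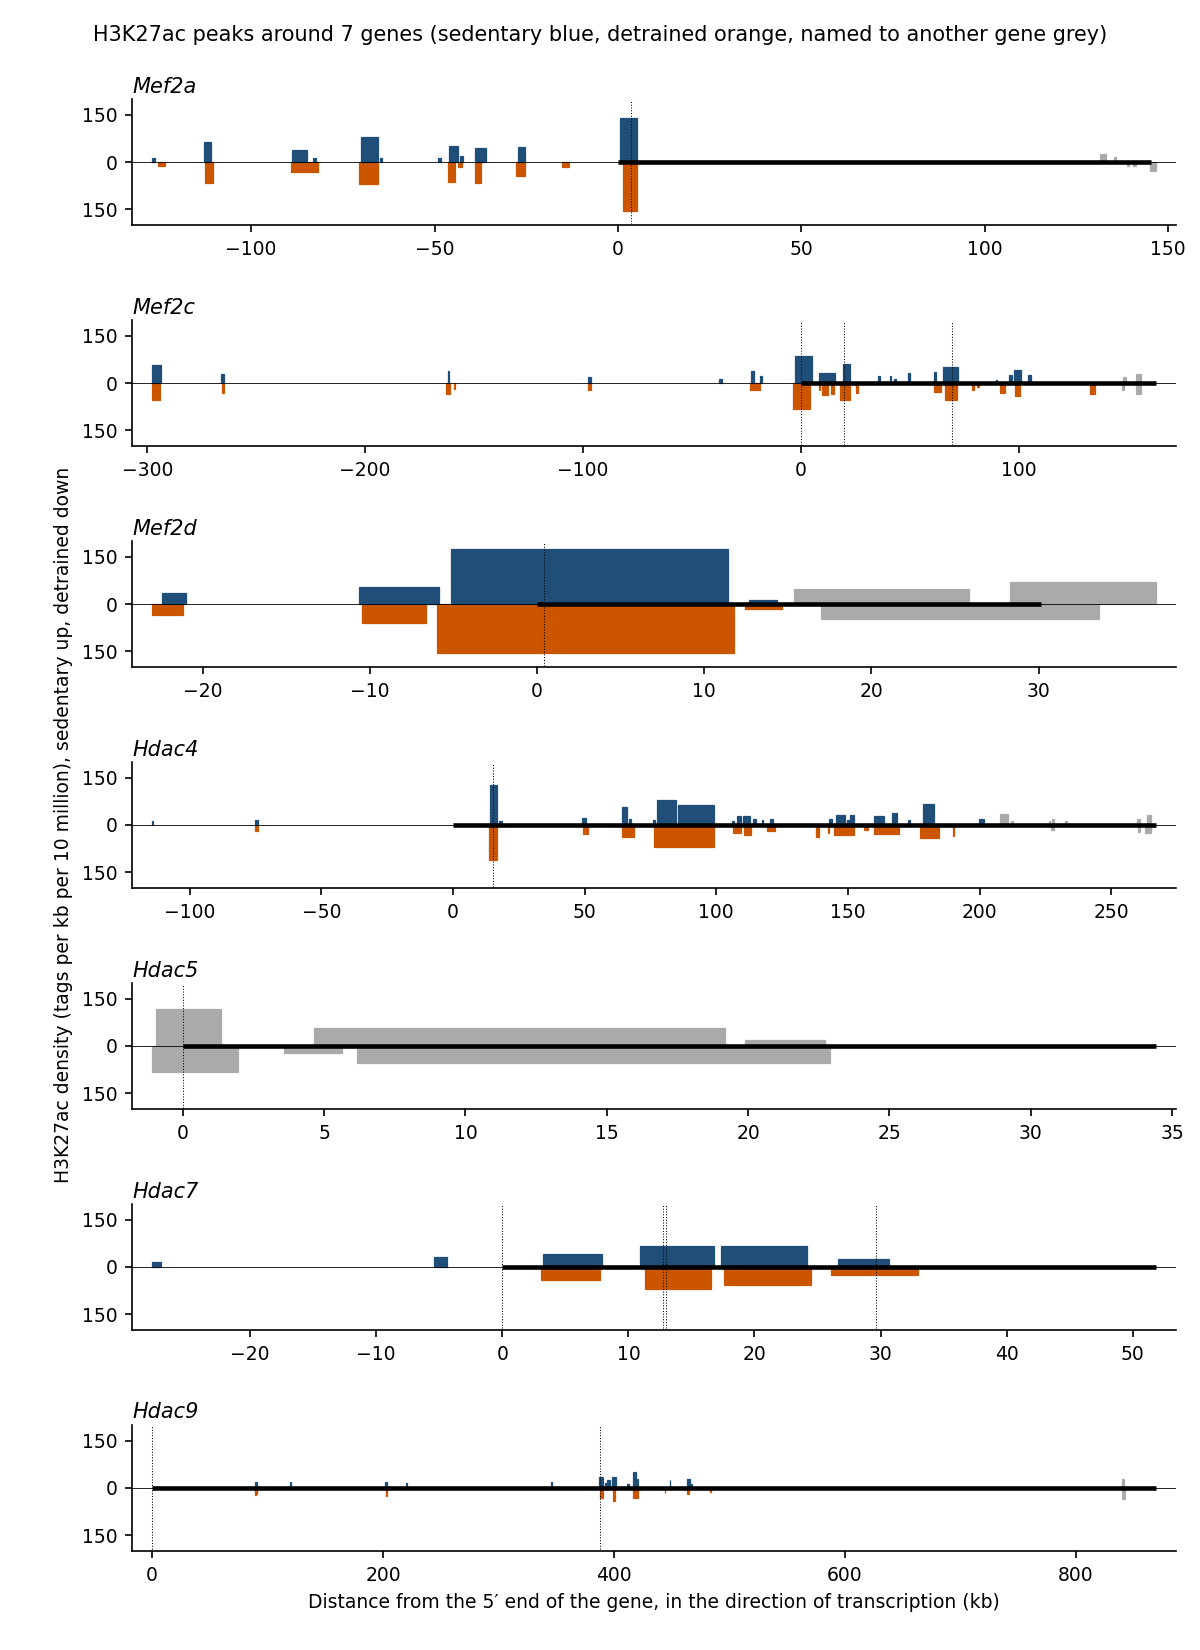
Peaks called around the 7 genes. The horizontal axis of each panel gives the distance in kb from the 5′ end of the RefSeq gene in the direction of transcription, with the gene as a thick line and RefSeq start sites as dotted lines, and the vertical axis gives pooled H3K27ac density (tags per kb per 10000000), upward for the sedentary list and downward for the detrained list. Grey blocks lie over a gene but carry another gene's name. Mef2a was marked at its promoter and upstream, Mef2d over its start site, Hdac4 in its introns, and Hdac9 around its internal start.

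Mef2d carried the strongest region. A single intronic and promoter domain of 16564 bp in the sedentary list (chr3:88136822-88153386) held 2863.1 pooled tags, and its counterpart of 17788 bp in the detrained list (chr3:88135929-88153717) held 2776.2. It was the 13th strongest peak of each list by tags. Its density was 157 (C2) and 189 (C3) in sedentary and 164 (Ex1) and 149 (Ex2) in detrained muscle, and the groups overlapped (log2 ratio of detrained to sedentary -0.14). The difference between the sedentary libraries was larger than that between the groups. This domain held 89.5% of the tags of the 4 sedentary Mef2d peaks and 89.6% of those of the 4 detrained peaks, and both Mef2d matches to the MEF2 consensus lay inside it. Beyond it, towards the 3′ end of Mef2d, peaks of 499.1 and 615.2 tags in the sedentary list and 1 peak of 769.1 tags in the detrained list carried the name of the neighbouring noncoding gene 1700113A16Rik.

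Mef2a, a MEF2 factor widely expressed in adult tissues, was marked at its promoter and in a chain of peaks upstream of the gene. Its promoter peak (chr7:67371397-67375866) had a density of 131 in C2 and 147 in C3, and of 164 in Ex1 and 145 in Ex2, with a log2 ratio of 0.15 and overlapping groups. The sedentary list had 11 upstream peaks, from 29.9 to 130 kb before the start site, which together held 62.9% of the tags of Mef2a, and the detrained list had 9, from 17.9 to 128 kb, which held 66.7%. The densest of them that was shared (chr7:67441924-67446552) held 364.3 pooled tags in sedentary and 361.0 in detrained muscle. Its density was 72.2 and 85.5 in the sedentary libraries and 67.4 and 69.1 in the detrained ones (log2 ratio -0.20). Both detrained libraries thus lay below both sedentary libraries in density, whereas the called peak was longer in the detrained list, 5293 against 4628 bp. The longest Mef2a peak of the detrained list spanned 7394 bp about 89 kb upstream, where the sedentary list had peaks of 3962 and 665 bp. In contrast to the upstream region, the 145-kb gene body had no peak named Mef2a besides that of the promoter, and the 2 sedentary and 3 detrained peaks at its 3′ end, with 59.7 and 63.3 tags in all, carried the name Lysmd4.

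The peak of Mef2a with the largest difference lay 41 kb upstream (chr7:67412533-67415382). Sedentary densities were 40.4 and 48.7 and detrained densities 70.1 and 64.3, higher in both (log2 ratio 0.60). The tags in it did not rise, with 126.5 pooled in sedentary and 114.2 in detrained muscle, and the called length was 2849 bp in the sedentary list and 1706 bp in the detrained list. Per peak, without length, the log2 ratio was -0.14 and the groups overlapped.

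Mef2c, which is needed for skeletal and cardiac muscle development and is also active in endothelial and neural cells, had 20 peaks in the sedentary and 19 in the detrained list. They reached 296 kb upstream. All 3 RefSeq start windows of Mef2c touched a peak in both lists. The peak at the first start was the longest and the densest of them (chr13:83501358-83509211), with densities of 72.8 and 98.9 in the sedentary libraries and 86.0 and 78.6 in the detrained ones. The peak at the second start (chr13:83523191-83526678) had 58.4 and 64.0 against 60.4 and 46.9, and the promoter peak at the third (chr13:83569345-83576269) had 49.1 and 54.9 against 58.5 and 48.2. Log2 ratios at the 3 starts were -0.04, -0.20 and 0.03. In none of the 7 shared peaks of Mef2c did the groups separate in density. The most distant of them, 296 kb upstream (chr13:83206351-83210496), had densities of 51.0 and 62.3 in sedentary and 55.5 and 53.9 in detrained muscle.

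Hdac4, a signal-responsive repressor that rises with denervation of muscle, had 25 peaks in the sedentary list, the most of the 7 genes there, and 15 in the detrained list. The peak at its start site (chr1:92178804-92181636) had a density of 124 (C2) and 129 (C3) in sedentary and 115 (Ex1) and 107 (Ex2) in detrained muscle. Both detrained libraries were lower (log2 ratio -0.19), also per peak (-0.13), with called lengths of 2832 and 2945 bp. The strongest distal region lay within the gene. The sedentary list broke it into peaks of 13657 and 7430 bp with 853.7 and 599.8 tags and 1 small peak, and the detrained list held 1 peak of 22731 bp with 1571.3 tags (chr1:92096662-92119393). Summed over this whole region, the libraries held 1319 and 1624 tags in sedentary and 1629 and 1517 in detrained muscle, with overlapping groups. Under 20 tags were held by 10 of the 25 sedentary and 2 of the 15 detrained Hdac4 peaks, against 27.5% and 17.9% of all peaks in these lists.

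An intronic Hdac4 peak 165 kb from the start site (chr1:92012895-92017144) had the largest difference in density of all member peaks. Its density was 61.4 (C2) and 70.5 (C3) in sedentary and 44.1 (Ex1) and 38.2 (Ex2) in detrained muscle (log2 ratio -0.68). Its pooled tags were 279.7 in sedentary and 289.6 in detrained muscle, and its called length was 4249 and 7060 bp. Without length the log2 ratio was 0.05 and the groups overlapped. At a weaker intronic peak, chr1:92145116-92146584, the direction was the same on both scales. The density was 24.01 and 20.7 in sedentary and 27.3 and 28.5 in detrained muscle (log2 ratio 0.32 per kb and 0.62 per peak).

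Hdac5, a class IIa deacetylase abundant in striated muscle, had no peak in its name, but its gene body was marked. Annotation to the nearest start site gave its peaks to Mir8101, a microRNA whose hairpin (chr11:102230040-102230150) lies inside the 5′ end of Hdac5, and to G6pc3. A peak over the Hdac5 start site (chr11:102228832-102231125) held 267.2 pooled tags in sedentary and 250.3 in detrained muscle. Its density was 113 and 120 in the sedentary libraries and 83.5 and 80.9 in the detrained ones, with called lengths of 2293 and 3051 bp. The tags over it were 259 and 275 against 254 and 246. Both detrained libraries were lower, with a log2 ratio of -0.51 per kb and of -0.09 in tags. An intronic domain of 14538 bp in the sedentary list and 16720 bp in the detrained list held 838.3 and 911.1 tags. All peaks over the Hdac5 body summed to 1090 and 1238 tags in the sedentary libraries and 1272 and 1146 in the detrained libraries, with overlapping groups. These peaks were outside the rule that chose the members, and they enter no count of member peaks. The Hdac5 promoter window is counted among the 11 that touched a peak through them.

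Hdac7, known for its roles in endothelium and developing T cells, had 6 sedentary and 4 detrained peaks over and near its body of 51.8 kb. By mean log2 density over the 4 libraries, its densest shared peak lay at the middle start sites (chr15:97827709-97833576). Its densities were 66.7 and 63.1 in sedentary and 77.7 and 65.0 in detrained muscle, although in C3 the longest Hdac7 peak was denser. Its longest peak (chr15:97820316-97827137) had 63.2 and 70.6 in sedentary and 58.3 and 58.7 in detrained muscle, and the detrained libraries were lower per kb and per peak (log2 ratio -0.19 and -0.17). The promoter peak at the downstream start (chr15:97813803-97817886) had 25.8 and 26.1 against 28.8 and 25.2. Its called length grew from 4083 to 6873 bp between the lists and its tags from 105.7 to 184.7. The summed tags of Hdac7 were 1156 and 1196 in sedentary and 1208 and 1115 in detrained muscle, and these groups overlapped, as did those of the endothelial markers.

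Hdac9, which also yields a short form without the deacetylase domain, had the lowest mean density of the 6 genes with peaks in their name. Its gene spans 870 kb, and peaks in the intron annotated as intron 4, downstream of the internal start, held 84.9% of its tags in the sedentary and 83.7% in the detrained list. The peak at the internal start (chr12:34526298-34530158), which holds the MEF2 match shown above, had a density of 29.9 (C2) and 40.8 (C3) in sedentary and 33.4 (Ex1) and 32.9 (Ex2) in detrained muscle. A peak 30 kb downstream of the start (chr12:34497616-34500882) had 40.2 and 58.9 in sedentary and 35.3 and 29.9 in detrained muscle. The detrained libraries were lower (log2 ratio -0.58), with 161.3 and 144.8 pooled tags and called lengths of 3266 and 4461 bp, and per peak the groups overlapped (-0.13). The other 3 shared Hdac9 peaks were lower per peak in both detrained libraries, with log2 ratios of -0.85, -0.63 and, at the internal start, -0.49, and their groups overlapped in density. All 4 shared Hdac9 peaks were higher in C3 than in C2, and their median difference between these 2 sedentary libraries was 0.56 on the log2 scale, against 0.07 over all shared peaks.

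**Figure D2:**
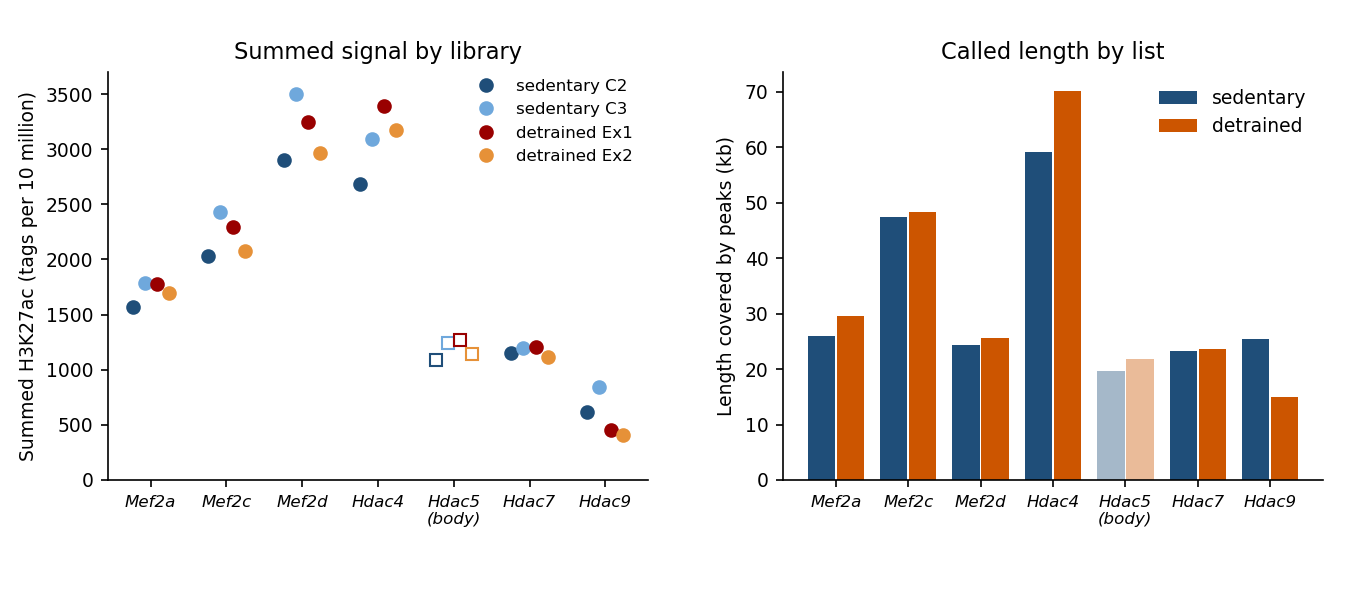
Summed H3K27ac and called length per gene. Left, points give the tags per 10000000 in each of the 4 libraries summed over the peaks of a gene, and right, bars give the length in kb covered by those peaks in each list. Open squares and pale bars give the peaks over the Hdac5 body. Hdac9 was lower in both detrained libraries (449 and 411 against 615 and 839) and was covered over 15.0 kb in place of 25.4 kb.

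Summed over all its peaks, Hdac9 held 615 (C2) and 839 (C3) tags in sedentary and 449 (Ex1) and 411 (Ex2) in detrained muscle. Both detrained libraries were lower (log2 ratio -0.74), and leaving out 1 library at a time gave ratios from -0.97 to -0.52. The covered length fell from 25.4 to 15.0 kb and the number of peaks from 15 to 9, whereas the mean density was 28.6 in the sedentary and 28.7 in the detrained list. Over shared peaks alone the sum had a log2 ratio of -0.43, and 8 of the 15 sedentary peaks, with 137 tags together, touched no detrained peak, as did 27.9% of all sedentary peaks. Hdac4 was higher in both detrained libraries, with 2686 and 3097 against 3396 and 3170 tags (log2 ratio 0.19), over a covered length of 59.1 and 70.1 kb and at a mean density of 48.9 and 46.8. Its ratio was 0.08 without C2, 0.29 without C3, 0.14 without Ex1 and 0.24 without Ex2. Over shared peaks alone it was 0.54, where the detrained 22731-bp peak is set against the sedentary 13657-bp peak alone, and over the whole of that region it was 0.10 with overlapping groups. Over the Hdac4 body, 7 sedentary and 3 detrained peaks, with 220 and 93.4 pooled tags, carried the name Twist2. All peaks over the body, these included, summed to 2877 and 3297 tags in sedentary and 3461 and 3246 in detrained muscle, with overlapping groups. The fibroblast, immune, satellite cell and smooth muscle marker totals were also higher in both detrained libraries. The fibre total was higher as well, but its groups overlapped without Myh4. The part of these marker totals in the sums of Hdac4 and Hdac9 was not tested.

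For the other 4 genes the summed tags of the groups overlapped. Mef2a held 1565 and 1783 in sedentary and 1778 and 1693 in detrained muscle, Mef2c 2034 and 2430 against 2297 and 2076, and Mef2d 2901 and 3502 against 3245 and 2964. Per kb of called peak, Mef2d had the highest mean density, 119 and 143 in the sedentary and 126 and 115 in the detrained libraries, and Mef2a followed with 60.4 and 68.8 against 60.2 and 57.3. Hdac7, Hdac4 and Mef2c lay between 42.9 and 52.4 in all libraries, and their ranges over the 4 libraries overlapped, although Mef2c was below the other 2 in every library. Hdac9 was lowest in every library, at 24.2 to 33.02. Of the 6 genes, 2 thus had groups that did not overlap, against 59.5% of the 13524 genes with peaks in both lists, so that the share was below the background.

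Next, peaks of the lists were paired one to one where each covered at least 50% of the other. This gave 33 shared member peaks, which were 40.2% of the sedentary and 54.1% of the detrained member peaks, against 56.3% and 64.9% over all peaks. All 33 carried the same gene name in both lists. Hdac4 had 6 of them, Hdac7 and Hdac9 4 each, Mef2a 8, Mef2c 7 and Mef2d 4. Any overlap at all was found for 53 of the 82 sedentary peaks (64.6%, against 72.1% of all) and 47 of the 61 detrained peaks (77.0%, against 82.0%). The 29 sedentary peaks without any counterpart held 4.28% of the members' tags, with 5.66 to 57.9 tags each and 21 under 20. The 14 detrained peaks without one held 3.34%, with 7.88 to 80.2 tags each. The most abundant of these, in intron 6 of Mef2c (chr13:83636719-83638965), had densities of 33.6 and 37.8.

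The mean log2 density over the 33 shared peaks was 5.38 (C2) and 5.61 (C3) in sedentary and 5.51 (Ex1) and 5.45 (Ex2) in detrained muscle. The group means were 5.50 ± 0.16 (SD, n = 2) and 5.48 ± 0.04 (SD, n = 2), and their difference of -0.02 was smaller than the spread between the sedentary libraries. The median log2 ratio was 0.03, against -0.03 over all 26432 shared peaks. C3 was above C2 at 28 of the 33 peaks, and at 20 of them the difference between C2 and C3 exceeded that between the groups. The MEF2 factors had a median ratio of -0.02 over 19 peaks and the class IIa deacetylases of 0.06 over 14 peaks.

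**Figure D3:**
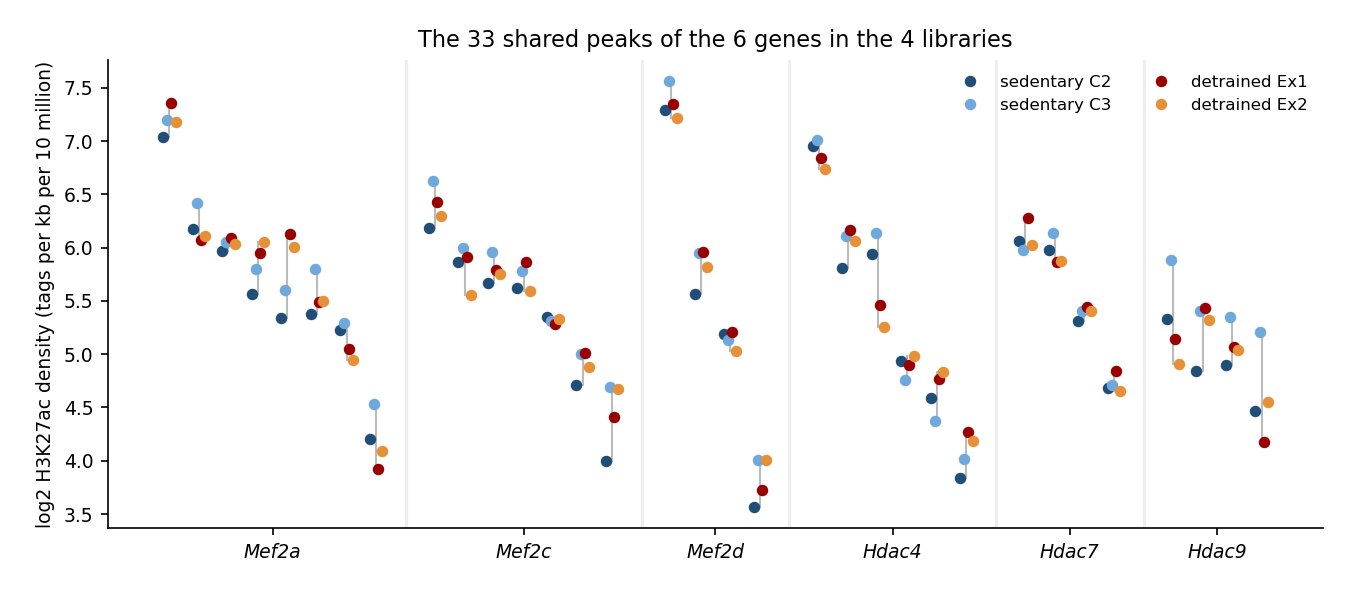
H3K27ac density at the 33 shared peaks of the 6 genes. Each column of points is 1 peak, ordered by its mean within a gene, the vertical axis gives log2 density (tags per kb per 10000000), and colours give the 4 libraries. At 28 of the 33 peaks C3 lay above C2, the 4 Hdac9 peaks among them.

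At 11 of the 33 shared peaks (33.3%) the groups did not overlap, both detrained values being above or both below those of sedentary muscle, against 48.5% of all shared peaks. Of these 4 were higher and 7 lower after detraining, against 21.3% higher and 27.2% lower over all shared peaks, so that neither share exceeded the background at this scaling. No shared member peak reached a 2-fold difference in density, which 0.0757% of all shared peaks did with groups apart. The 11 peaks belonged to Mef2a (2 higher, 3 lower), Hdac4 (2 higher, 2 lower), Hdac7 (1 lower) and Hdac9 (1 lower), and none to Mef2c or Mef2d on this scale. The split depended on scaling: with libraries scaled to the tags in listed peaks 11 were higher (33.3%, against 27.8% of all shared peaks) and 7 lower (21.2%, against 22.03%). With the median of all shared peaks set to 0, 7 were higher and 7 lower (21.2% each, against 24.3% and 24.1%). With 2 libraries against 2, an exact two-sided permutation test cannot give a p below 0.333, and the tables were normalized separately, so no test was made.

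**Figure D4:**
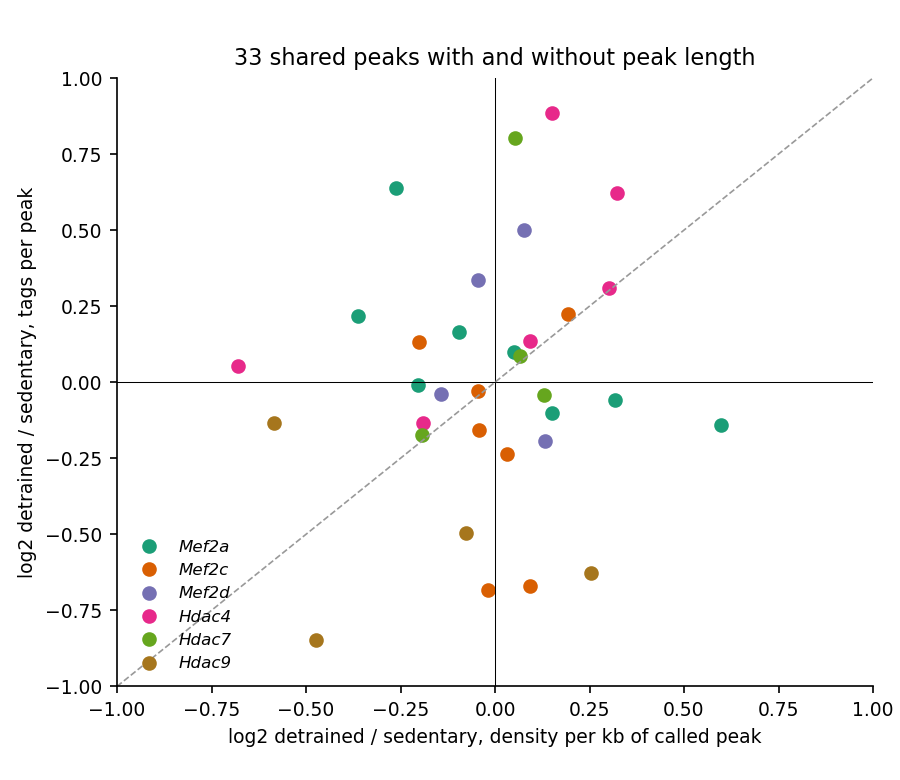
Change at the 33 shared peaks with and without called length. The horizontal axis gives the log2 ratio of detrained to sedentary density per kb, the vertical axis that of tags per peak, points are peaks coloured by gene, and the dashed line marks equal values. Peaks far from the line changed in called length between the lists. The Hdac4 peak at -0.68 per kb lies at 0.05 per peak, and the Mef2a peak at 0.60 per kb lies at -0.14.

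Called length moved these values. Per peak, without length, 17 of the 33 peaks had groups apart, against 53.4% of all shared peaks. Of these 9 were higher and 8 lower, against 24.7% and 28.8% of all, and they included 3 Mef2c peaks, all lower, and 2 Mef2d peaks, both higher. Only 4 peaks, all of Hdac4 and Hdac7, had the same call on both scales, and 1 Mef2a peak turned direction. That peak, about 90 kb upstream (chr7:67461339-67465301), had densities of 37.5 and 39.3 in sedentary and 33.1 and 30.9 in detrained muscle (log2 ratio -0.26), and its called length was 3962 and 7394 bp (log2 ratio 0.64 per peak). When touching peaks of both lists were instead joined into 43 regions and their tags summed, 26 regions (60.5%) had groups apart, against 57.6% of all such regions. Of these 16 were higher and 10 lower, against 28.2% and 29.5% of all, and Mef2c had 7 of its 11 regions among them (3 higher, 4 lower) and Mef2d 2 of its 3 (both higher). A 2-fold difference was reached by 5 of the 43 regions, against 7.13% of all. These were 3 Mef2c regions at log2 ratios of 1.08, 1.15 and 1.56, 1 Hdac4 region at 1.29, and 1 Hdac9 region at -1.04, and the called length was longer in the detrained list at the first 4 and shorter at the Hdac9 region. The regions with groups apart included 4 Hdac9 regions, all lower and all with a shorter called length in the detrained list, and 8 Hdac4 regions, of which 7 were higher, all 7 with a longer called length.

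Finally, other genes of the pathway were described from lists of known partners. Of 15 kinases of class IIa deacetylases, 14 had peaks, and of their 49 shared peaks 14 were higher and 14 lower, where 21.3% of all shared peaks were higher and 27.2% lower. Of 9 genes of the calcineurin and NFAT branch, which also answers to calcium, all had peaks, with 5 of 30 shared peaks higher and 10 lower. The 14-3-3 genes had 2 higher and 7 lower of 19, and the MEF2 kinases Mapk14 and Mapk7 2 lower of 2. Per peak, without length, the 14-3-3 genes had 6 higher and 5 lower and the MEF2 kinases 1 higher and 0 lower, whereas the kinases had 17 higher and 16 lower and calcineurin and NFAT had 5 and 10, where 24.7% of all shared peaks were higher and 28.8% lower. Camk4 and the family member Mef2b had no peak in either list, and Sfn and Ncor1 had none in their name in the detrained list. Median log2 ratios were -0.07 for the kinases, -0.03 for calcineurin and NFAT, -0.03 for the 14-3-3 genes and -0.20 for the MEF2 kinases, against -0.03 over all shared peaks. Summed over all peaks of a gene, more genes of these lists were lower than higher. Of the 14 kinases 2 were higher and 8 lower in both detrained libraries, and of the 9 calcineurin and NFAT genes 1 was higher and 6 were lower, where 24.3% of all genes with peaks in both lists were higher and 35.2% lower. Of 6 genes for 14-3-3 proteins 1 was higher and 3 were lower, and of the 2 MEF2 kinases 0 were higher and 1 was lower. The median log2 ratios of these sums were -0.14, -0.15, -0.15 and -0.19, in the same order, against -0.05 over all genes. The 3 lower 14-3-3 genes included Ywhag, whose peak of 17695 bp was named Hspb1 in the detrained list. The groups overlapped in density at that peak, which is described at the end.

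The genes known as MEF2 targets in muscle, 6 of 7 with a shared peak, had 29 such peaks, of which 11 were higher and 0 lower in density, with a median log2 ratio of 0.16. Thus 37.9% were higher, against 21.3% of all shared peaks, and none lower, against 27.2%. Per peak, without length, 8 were higher and 3 lower, against 24.7% and 28.8% of all, and of the summed tags of 6 genes 1 was higher and none lower, against 24.3% and 35.2% of all genes. Jun alone gave 14 of the 29 shared peaks and 6 of the 11 higher in density, and Ppargc1a gave 6 and 2. Ckm and Mb stand both in this list and among the fibre markers. Ppargc1a, a coactivator of mitochondrial genes, had a peak with densities of 21.2 and 24.6 in sedentary and 43.4 and 34.7 in detrained muscle (log2 ratio 0.76 per kb and 0.17 per peak). Jun, which encodes an AP-1 subunit, had one with 31.2 and 25.6 against 42.6 and 49.5 (log2 ratio 0.70 per kb and 0.07 per peak). Among the kinases, Prkaa1, a catalytic subunit of AMPK, had a peak with 68.5 and 57.1 against 45.1 and 39.1 (-0.57 per kb and 0.25 per peak), while its tags summed over 1 sedentary and 3 detrained peaks were 120 and 100.1 against 211 and 193. Sik2 had a peak with 65.1 and 70.9 against 103 and 96.8 (0.55 per kb and -0.12 per peak). Rcan1, an inhibitor of calcineurin, had 46.2 and 40.5 against 31.8 and 26.1 (-0.59 per kb and -0.03 per peak), and Ppp3cb, a catalytic subunit of calcineurin, had 56.0 and 44.4 against 29.4 and 34.2 (-0.65 per kb and -0.03 per peak). The 14-3-3 gene Ywhaz had 24.3 and 30.6 against 49.1 and 40.6, and here the increase held per peak (0.71 per kb and 1.34 per peak).

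Among 1089 genes with at least 5 shared peaks, those whose summed shared peaks followed the mean profile of the members most closely were Zfp532, Wnt5b and Txn2. Their Euclidean distances were 0.018, 0.022 and 0.024 on the centred log2 scale over 4 libraries, against a median of 0.22 over the 1089 genes. That mean profile was -0.13 and 0.13 for the sedentary libraries and 0.06 and -0.05 for the detrained libraries. Its detrained values lay between its sedentary values, so closeness to it is no sign of a shared difference between the groups. Hdac9 lay at 0.48 from the mean profile, and Mef2a, Mef2c, Mef2d and Hdac7 lay at 0.046 to 0.15. Hdac4 lay at 0.54, but its sum sets the detrained 22731-bp peak against the sedentary 13657-bp peak alone, and the groups overlapped over the whole of that region. The mean profile includes this sum of Hdac4.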

How the data were processed

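H3K27ac ChIP-seq libraries from quadriceps, 2 per group, were analysed with 1 input per group. Alignment by the authors was to mm10 with Bowtie (1.2 in the submitters' processing notes) and called peaks with HOMER on the pooled libraries of a group against its input. Each deposited list gives the pooled signal per peak in tags per 10000000, regularised log2 values per library, a log2 fold over input and an adjusted p-value from the authors. These last columns compare the mark with input, and were used only to filter peaks.

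Tags per library were estimated by dividing the pooled tags in proportion to library total and 2 to the power of the deposited log2 value. Densities were (tags + 0.5) per kb on a log2 scale. Groups were called apart when both detrained libraries lay on one side of both sedentary libraries. The 2 lists were normalized separately, so no test between groups was made. The labels number the controls 1 and 2 while the tables name them C2 and C3, so they were tied to their group and to no numbered sample. Peaks named in the text were the promoter peaks, the strongest distal shared peak, the longest peak and shared peaks apart by at least 0.5 on the log2 scale, with at most 2 genes per pathway list, and the 3 genes most alike. The Hdac4 peak 34 kb into the gene, further peaks at start sites, the most distant Mef2c peak, the Hdac5 peaks over the gene body and the strongest unmatched peak were chosen after their values were seen. Members and lists were chosen with earlier results of these data known. Counts over the list of corepressor partners are not reported here. Alternatives changed the overlap, scaling, pseudocount, peak filter, called length and libraries. Peaks over gene bodies and merged regions were alternatives chosen after seeing the data. Sequences were read from RefSeq, GRCm38.p6. Python 3.11.15, pandas 2.3.3 and numpy 2.4.6 were used, and the scripts were tested on simulated data.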

Additional observations from a re-analysis of the deposited data

How the results depend on the processing

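No paired analysis was made, because each library came from a single muscle of its own animal. By the methods of the study, mice were assigned at random to cages with or without wheels. Restricted to an adjusted p under 0.001 and 4-fold enrichment against input, the member peaks numbered 37 in the sedentary and 39 in the detrained list, in place of 82 and 61, so that the larger sedentary count was lost. The 11 of 33 shared peaks with groups apart became 17 per peak without length, 18 with scaling to listed peaks, 4 of 15 when each peak had to cover 80% of the other, and 26 of 43 merged regions (chosen after seeing the data). It became 22 without C2, 25 without C3, 17 without Ex1 and 24 without Ex2, where fewer libraries have to separate. Genes whose summed tags were apart numbered 5 of 6 without C2 or without C3 and 3 without Ex1 or without Ex2, in place of 2. For the settings that left out 1 library, and for the 80% overlap, the shares over all shared peaks or genes were not computed. These counts therefore have no background beside them. The median promoter ratio over 3 genes was 0.05, and it was -0.10 per peak and -0.11 for the peak nearest to the start site over 6 genes. With any overlap, 64.6% of the sedentary member peaks had a counterpart in place of 40.2%. The median ratio over shared member peaks ranged from -0.06 to 0.10 over its alternatives, within the 0.12 spread between replicates. Over all alternatives 68 of 90 values moved by less than the spread or count limit set for them and 22 moved by more. In 25 the sign changed, 16 of them for single genes, none of which had groups apart in the value reported. The cause of these moves was not tested. The depth of each library within a peak was estimated from pooled tags, 2 libraries per group limit every comparison, and 21 of the 29 sedentary member peaks without a counterpart held under 20 tags.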

Other observations

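The name of the nearest gene moved some peaks of pathway genes from one gene to another between the lists. Of 26432 shared peaks, 381 (1.44%) carried different gene names in the lists, and 0 of these named a member gene. Ywhag, which encodes a 14-3-3 protein, summed to 1878 and 2232 tags in the sedentary libraries and to 547 and 517 in the detrained ones. A sedentary Ywhag peak of 17695 bp (chr5:135903173-135920868, mm10) had its detrained counterpart named for Hspb1, and its density was 75.02 and 92.8 in sedentary and 74.1 and 79.9 in detrained muscle, with overlapping groups. The promoter peak of Ncor1, a corepressor that binds Hdac3, was named Pigl in the detrained list. Its density was 158 and 155 in sedentary and 134 and 124 in detrained muscle. These peaks were chosen after their values were seen.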
